A study of Mus musculus with 6 samples.

Results

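The 7 genes Bcl6, S1pr2, Gpr183, Batf, Maf, Mef2b and Rgs13, which encode regulators of the germinal center and of follicular helper T cells, were followed by transcriptome analysis in whole kidneys of MRL and LPR mice. They were chosen by gene symbol alone, and every non-control probe that the array annotation gives one of these symbols was taken. This gave 12 probes of 7 genes, out of 56605 probes and 36870 gene names on the array. The MRL group was 3 female MRL/MpJ mice, the controls, and the LPR group was 3 female MRL/MpJ-Fas lpr/lpr mice, the diseased strain, all 6 months of age and without any treatment named in the labels. LPR mice have the MRL/MpJ background with a mutation of the death receptor gene Fas in every cell, so the gene is not altered in lymphocytes alone. Each mouse gave 1 kidney sample on 1 Agilent single-colour array, and whole kidney RNA mixes tubules, glomeruli, vessels and infiltrating cells. In such samples, more cells of a type and more RNA per cell cannot be told apart.

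A germinal center is the site in a lymphoid follicle where B cells divide, mutate their antibody genes and are selected with help from follicular helper T cells. BCL6 is a transcriptional repressor that both cell types need. BATF and MAF are leucine zipper transcription factors that act in the follicular helper program, and MEF2B is a MADS box transcription factor that activates Bcl6 in germinal center B cells. S1PR2, a receptor for sphingosine-1-phosphate, holds cells inside the germinal center. GPR183, also named EBI2, is an oxysterol receptor that draws B cells to the outer follicle and is turned down in germinal center cells. RGS13 is a regulator of G protein signalling that dampens chemokine receptors in germinal center B cells.

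The promoters of the genes that moved the most are shown beside that of Bcl6, their common partner in the program. RefSeq windows of 300 bases, from 250 bases before the transcription start site to 50 after it on GRCm38.p6, were at hand for 6 of the 7 genes, with 7 windows in all, and none for Maf. Capitals mark matches to 1 of the 6 motifs searched on both strands. The searched letters were TGANTCA for AP-1, the site that BATF and JUN proteins bind, TTCNNNGAA for STAT factors, TTCCTNGAA for BCL6, GAAANNGAA for the core of the interferon-stimulated response element, GGGANTTNC for NF-kB and TGCTGAC for MAF proteins. Any BCL6 match is also a STAT match. The motifs were chosen after the expression values had been seen. The sequences are those of the coding strand, 5′ to 3′.
Batf, chr12:85686470-85686769, plus strand: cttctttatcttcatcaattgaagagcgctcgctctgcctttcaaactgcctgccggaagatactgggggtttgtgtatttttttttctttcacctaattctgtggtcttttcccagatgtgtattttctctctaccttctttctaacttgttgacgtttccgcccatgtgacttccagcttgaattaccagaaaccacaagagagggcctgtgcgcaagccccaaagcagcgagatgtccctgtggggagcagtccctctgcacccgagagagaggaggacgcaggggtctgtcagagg
Gpr183, chr14:121965144-121965443, minus strand: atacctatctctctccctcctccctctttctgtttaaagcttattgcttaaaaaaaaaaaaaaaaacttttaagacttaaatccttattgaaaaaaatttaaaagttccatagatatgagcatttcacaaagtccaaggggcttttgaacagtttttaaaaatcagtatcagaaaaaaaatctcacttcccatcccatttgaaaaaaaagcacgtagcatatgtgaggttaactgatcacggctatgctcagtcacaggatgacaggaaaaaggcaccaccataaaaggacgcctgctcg
Bcl6, first window, chr16:23988803-23989102, minus strand: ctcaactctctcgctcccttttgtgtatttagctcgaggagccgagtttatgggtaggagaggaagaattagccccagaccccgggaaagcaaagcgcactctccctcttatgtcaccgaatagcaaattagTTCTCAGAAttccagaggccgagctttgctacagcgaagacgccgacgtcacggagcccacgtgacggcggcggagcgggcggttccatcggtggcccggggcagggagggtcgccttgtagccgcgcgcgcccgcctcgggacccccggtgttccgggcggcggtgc
Bcl6, second window, chr16:23981234-23981533, minus strand: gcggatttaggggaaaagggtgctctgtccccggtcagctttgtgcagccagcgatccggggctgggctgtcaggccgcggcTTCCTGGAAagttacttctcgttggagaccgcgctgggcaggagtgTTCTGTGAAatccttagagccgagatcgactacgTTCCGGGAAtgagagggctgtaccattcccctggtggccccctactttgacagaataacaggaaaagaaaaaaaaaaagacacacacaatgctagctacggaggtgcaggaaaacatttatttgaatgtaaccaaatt
With positions counted from the start site, the first Bcl6 window held 1 STAT match, TTCTCAGAA, at -118 to -110. The second held 3 STAT matches, at -168 to -160, -122 to -114 and -88 to -80. The first of these, TTCCTGGAA, was also the only BCL6 match among the 7 windows. The Rgs13 window held 1 NF-kB match, GGGATTTTC, at -165 to -157. None of the 6 motifs was found in the windows of Batf, Gpr183, S1pr2 and Mef2b. Among all 32851 RefSeq windows of this length, 8.3% held the STAT letters, 1.59% the BCL6 letters, 4.26% the NF-kB letters, 7.81% the AP-1 letters, 8.56% the interferon element and 4.67% the MAF letters. A match is a match of letters, and binding was not measured.

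Between 69.6% and 70.6% of the spots of the MRL arrays and between 70.7% and 73.5% of those of the LPR arrays were well above background, without any saturated spot. Precision is limited by the number of arrays. All 6 arrays lay on 1 slide, with the 3 MRL arrays and LPR 1 in its first row and LPR 2 and 3 in its second row. A change with the slide row as a block thus rests on LPR 1 alone against the 3 MRL mice. By column, only MRL 1 and LPR 2, and MRL 2 and LPR 3, shared a position. A change with the slide column as a block thus rests on these pairs, without MRL 3 and LPR 1. All levels below are log2 intensities relative to the 75th percentile of their array, a change is the LPR mean minus the MRL mean on this log2 scale, and levels of different probes are not compared. Probes with a signal well above background in 3 or more of the 6 mice entered limma, with Benjamini-Hochberg adjustment over 39924 probes and a threshold of 0.05. The median change of all tested probes was -0.14. Fas, the gene mutated in LPR mice, had a brighter probe that did not pass (change -0.47, standard error 0.24, adjusted p = 0.234 in limma). A second probe, above background in LPR mice alone, rose by at least 1.47-fold. Its adjusted p of 0.0338 in limma was computed with MRL levels that were not above background. All 8 kidney segment genes looked at were above background on all 6 arrays. Of these 1, the proximal tubule receptor Lrp2, was lower in LPR mice (change -0.39), beside 5.47% of all genes.

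Of the 7 genes, 4 were higher in LPR mice, namely Batf, Gpr183, S1pr2 and Mef2b, 0 were lower, and Bcl6, Maf and Rgs13 did not pass the threshold. A gene is represented by its brightest tested probe here. Over all 25805 genes with a tested probe, 7.12% were higher and 5.47% were lower by the same rule. By probe, 10 of the 12 were tested, 4 were higher and 0 were lower, while 6.53% of all tested probes were higher and 6.17% were lower. All 7 genes had at least 1 tested probe. The LPR levels lay above the MRL levels without overlap for the 4 genes that passed and for no other of the 7, a pattern that 11.7% of all genes and 11.0% of all tested probes had. None of the 7 lay below without overlap, as did 25.6% of all genes and 26.9% of all tested probes. When any tested probe counted, the same 4 of 7 genes were higher, beside 7.98% of all genes.

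**Figure D1:**
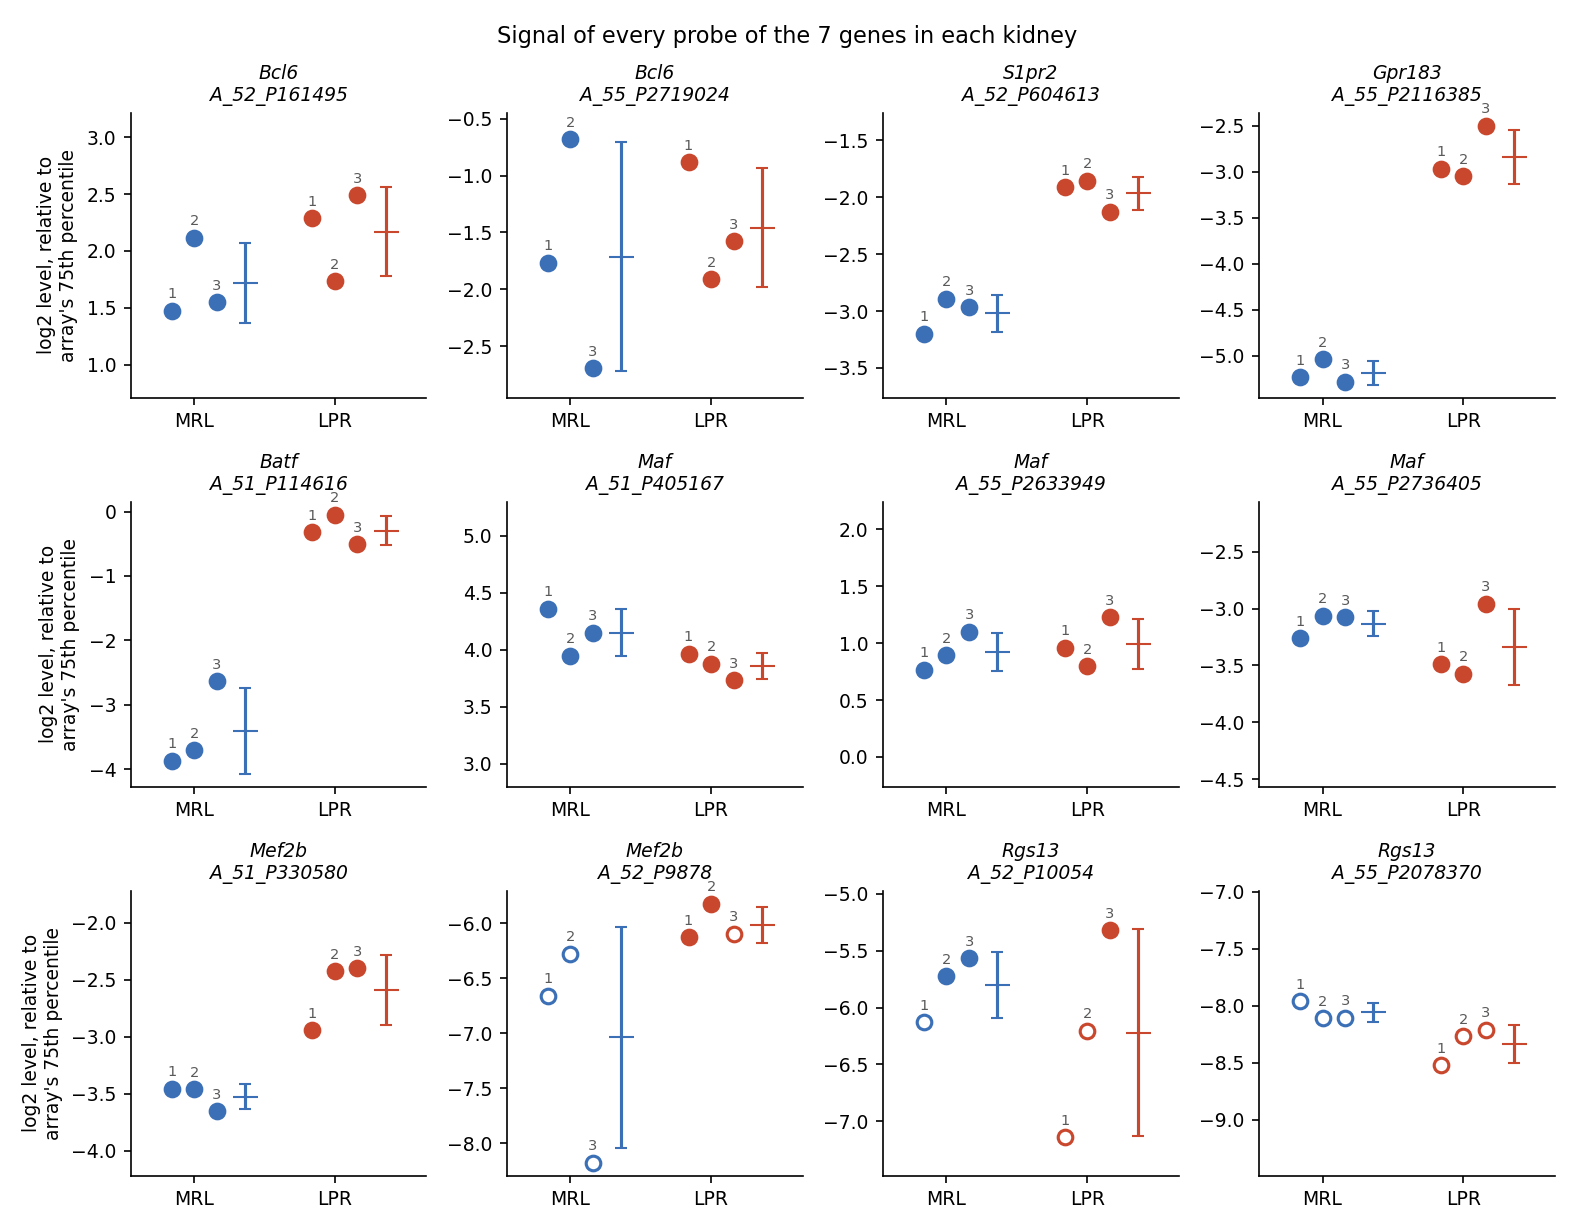
Log2 level of each of the 12 probes, relative to the 75th percentile of its array, in the 3 MRL mice (blue) and the 3 LPR mice (red), with the mouse number at each point. Filled points were well above background and open points were not, bars are the mean ± SD of 3 mice, and each panel has its own vertical range. The LPR points of Batf, Gpr183, S1pr2 and the first Mef2b probe lie above all MRL points, and those of Bcl6, Maf and the first Rgs13 probe overlap with them.

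Of the 4 transcription factor genes, Batf and Mef2b were higher in LPR mice. Batf (NM_016767, probe A_51_P114616, mm9 chromosome 12, 87049872 to 87049929) had levels of -3.87, -3.71 and -2.64 in MRL 1 to 3 and of -0.33, -0.05 and -0.51 in LPR 1 to 3. MRL 3 stood above the other MRL mice, but all LPR mice were far above it. The MRL mean was -3.40 ± 0.67 and the LPR mean -0.30 ± 0.23 (SD, n = 3 each). The change of 3.11 (standard error 0.32, 95% interval 2.34 to 3.87) is an 8.62-fold rise, with an adjusted p of 0.00126 in limma. This change was at the 98.7th percentile of all tested probes. The SD of Batf within the groups was at the 93.9th percentile, mostly from MRL 3, and the change was 3.49 without that mouse.

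The call of Mef2b rested on single mice and on the test used. Its probe A_51_P330580 (D87834, chromosome 8, 72691181 to 72691240) gave -3.46, -3.46 and -3.66 in MRL 1 to 3 and -2.94, -2.43 and -2.40 in LPR 1 to 3. LPR 1 was the lowest LPR mouse and was still above every MRL mouse. The change was 0.93 (standard error 0.17, 95% interval 0.53 to 1.34), a 1.91-fold rise with an adjusted p of 0.0154 in limma. The call was lost with the slide row as a block, which leaves LPR 1 alone against the MRL mice (change 0.58). It was lost too in limma without MRL 3 (0.87, adjusted p = 0.0561) and without LPR 3 (0.84, adjusted p = 0.0549). It was also lost under the methods' test after Benjamini-Hochberg adjustment, on log2 values (adjusted p = 0.0714) and on linear values (adjusted p = 0.0988). The second Mef2b probe, A_52_P9878 (NM_001045484, 72689001 to 72689060), lies 2121 bases away and was above background in 0 of 3 MRL mice and 2 of 3 LPR mice, too few arrays for a test. Its levels were -6.66, -6.27 and -8.18 in MRL mice and -6.13, -5.82 and -6.09 in LPR mice. The lowest signals that counted as above background lay between -6.41 and -5.88 on the 6 arrays, MRL 3 was well under that, and no fold is given for this probe.

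Both receptor genes were higher in LPR mice. Gpr183 (NM_183031, probe A_55_P2116385, chromosome 14, 122351881 to 122351940) had levels of -5.23, -5.04 and -5.28 in MRL 1 to 3 and of -2.97, -3.05 and -2.50 in LPR 1 to 3. The groups were each tight and far apart, with means of -5.18 ± 0.13 and -2.84 ± 0.29 (SD, n = 3 each). The change was 2.34 (standard error 0.17, 95% interval 1.94 to 2.74), a 5.08-fold rise with an adjusted p of 0.000226 in limma.

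S1pr2 (NM_010333, probe A_52_P604613, chromosome 9, 20770729 to 20770788) had levels of -3.20, -2.89 and -2.96 in MRL 1 to 3 and of -1.91, -1.86 and -2.13 in LPR 1 to 3. Again no LPR mouse overlapped with an MRL mouse. The change was 1.05 (standard error 0.13, 95% interval 0.74 to 1.37), a 2.08-fold rise with an adjusted p of 0.00295 in limma. Under normexp background correction the 4 calls were kept with smaller changes, 2.22 for Batf, 1.00 for Gpr183, 0.71 for S1pr2 and 0.51 for Mef2b.

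The 4 changes were ordered Batf, Gpr183, S1pr2 and Mef2b, and neighbours in this order were compared by the difference of the 2 probes within each array. In an exact two-sided permutation test over the 6 arrays, Batf exceeded Gpr183 by 0.76 (p = 0.3), Gpr183 exceeded S1pr2 by 1.29 (p = 0.1) and S1pr2 exceeded Mef2b by 0.12 (p = 0.6). A p of 0.1 is the smallest that 3 against 3 mice can give, and adjusted over these 3 pairs, chosen after the values were seen, the p-values were 0.45, 0.3 and 0.6. With this floor the test could not have shown a difference for any neighbouring pair, so it leaves the order undecided.

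**Figure D2:**
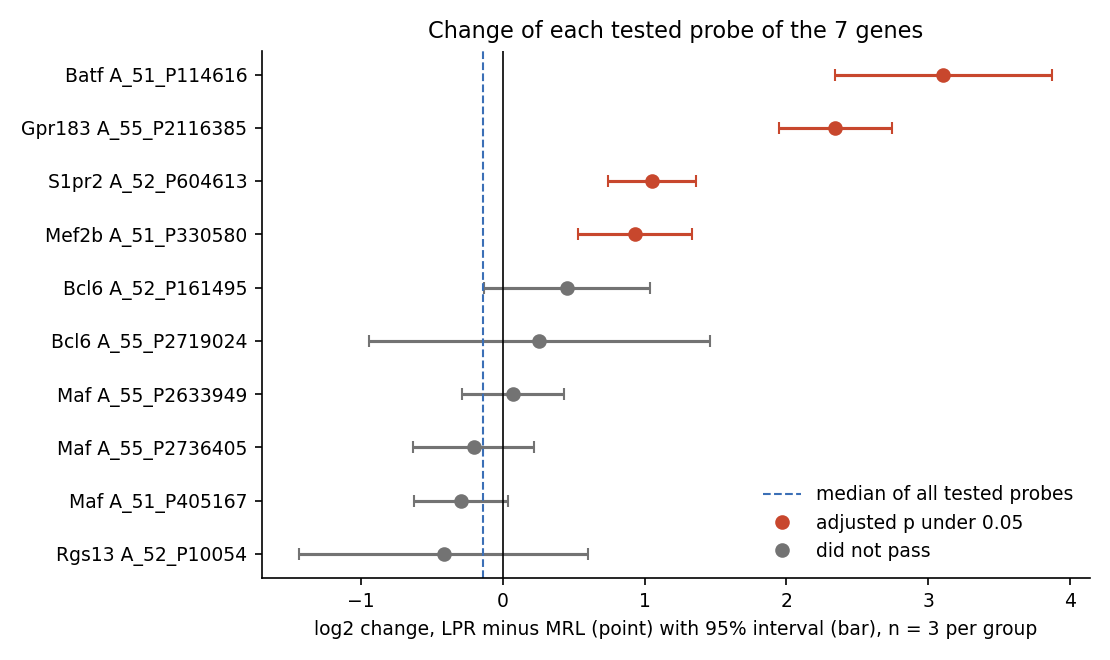
Log2 change from MRL to LPR mice for the 10 tested probes, with the 95% interval from limma (n = 3 per group) and red for an adjusted p under 0.05. The dashed line is the median change of all tested probes, -0.14, and the 4 red intervals, from Batf at 3.11 to Mef2b at 0.93, lie wholly above 0.

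Bcl6 itself did not pass the threshold with either of its 2 probes. The brighter one, A_52_P161495 (NM_009744, chromosome 16, 23965160 to 23965219), gave 1.48, 2.12 and 1.55 in MRL 1 to 3 and 2.29, 1.74 and 2.49 in LPR 1 to 3. MRL 2 was above LPR 2, so the groups overlapped. The change was 0.45 (standard error 0.25, 95% interval -0.13 to 1.04), with an adjusted p of 0.261 in limma, so a rise as large as that of Mef2b lies within the interval and that of Gpr183 does not.

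The other Bcl6 probe, A_55_P2719024 (ENSMUST00000135352, 23967780 to 23967839), lies 2561 bases from the first and was more variable. It gave -1.77, -0.68 and -2.69 in MRL mice and -0.88, -1.91 and -1.58 in LPR mice, with an SD within the groups at the 98.6th percentile of all tested probes. Both Bcl6 probes had their highest MRL level in MRL 2 and their lowest LPR level in LPR 2. The change was 0.26 (standard error 0.51, adjusted p = 0.76 in limma). It turned negative with the slide column as a block (-0.52), without MRL 3 (-0.23) and without LPR 1 (-0.03).

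Maf did not pass with any of its 3 probes. The brightest, A_51_P405167 (NM_001025577, chromosome 8, 118227736 to 118227795), gave 4.36, 3.95 and 4.15 in MRL 1 to 3 and 3.97, 3.88 and 3.73 in LPR 1 to 3. Only LPR 1 reached into the MRL range. The change was -0.29 (standard error 0.14, 95% interval -0.62 to 0.04), with an adjusted p of 0.206 in limma. The other probes, annotated to the transcript ENSMUST00000069009, lie 20404 and 20775 bases away, and their changes were -0.20 for A_55_P2736405 (standard error 0.18, 95% interval -0.63 to 0.22) and 0.07 for A_55_P2633949 (standard error 0.15, 95% interval -0.28 to 0.43). The second of these turned sign without MRL 1 (-0.0027) and without LPR 3 (-0.04). All 3 Maf intervals stayed under the change of Mef2b, and thus under each of the 4 rises.

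Rgs13 was close to background in both strains. Its probe A_52_P10054 (NM_153171, chromosome 1, 145986491 to 145986550) had a signal over background in 2 of 3 MRL mice and 1 of 3 LPR mice, with levels of -6.13, -5.73 and -5.57 in MRL mice and -7.14, -6.20 and -5.32 in LPR mice. The LPR mice spanned the whole MRL range. The change was -0.42 (standard error 0.43, 95% interval -1.43 to 0.60, adjusted p = 0.542 in limma). It was -1.33 with the slide row as a block, which leaves LPR 1, the lowest LPR mouse, alone against the MRL mice. It turned positive with the slide column as a block (0.16), which leaves LPR 1 out of the change, and without LPR 1 (0.04). The second probe, A_55_P2078370 (145985824 to 145985883), lies 608 bases away and was above background in 0 of 6 mice, with levels of -8.52 to -7.96. A difference in Rgs13 was therefore not detectable at this signal, which does not show its absence.

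Where a gene had more than 1 tested probe, the probes were compared within each array by the same exact two-sided permutation test. In this exact test the difference in change was 0.20 for the 2 Bcl6 probes (p = 0.8), and -0.37 (p = 0.3) and -0.09 (p = 0.8) for the brightest Maf probe against the other two. All 3 p-values were 0.8 after adjustment over the 3 comparisons. With its floor of 0.1 for 3 against 3 mice, this test could not have reached the threshold. It therefore does not show that the probes of a gene moved alike.

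For each gene, the probes most like it were sought by Pearson r over the 6 arrays. The search covered 29223 probes above background on every array and with a gene symbol, leaving out predicted genes and transcript identifiers. This is a description of 6 points in 2 groups, and any pair of genes that differ between the groups in the same way has a high r. Batf was most like Alox5ap, Slamf9 and Basp1 (r = 0.999 for the first), and 1545 of the probes had an r over 0.9 with it. Gpr183 was most like Rab37 and Ctse (r = 0.999 for the first), S1pr2 most like Tbc1d9, Fmnl3 and Tbkbp1 (0.998), and Mef2b most like Paox, Edem1 and Arl4c (0.999). The number of probes with an r over 0.9 was 1594 for Gpr183, 1611 for S1pr2 and 953 for Mef2b. Of the genes that did not pass, Bcl6 was most like Fstl1, Atad2 and Flnc (0.99), Maf most like Vax2os, Mgmt and Map2k3os (0.998), and Rgs13 most like Scn10a, Plagl1 and Ndfip2 (0.995), with 88, 513 and 129 probes over 0.9.

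Markers of immune cells moved with the groups, and their counts stand beside 7.12% of all genes higher and 5.47% lower. Of the 7 T cell markers 6 were higher in LPR mice, and their mean log2 level was -2.35 to -2.16 in MRL mice and -0.06 to 0.17 in LPR mice. Of 6 tested B cell markers 3 were higher, Cd79a and Cd79b among them, while 1, the brightest Ms4a1 probe, was lower although the other Ms4a1 probe was higher, and the mean level was -3.00 to -2.90 in MRL mice and -1.90 to -1.69 in LPR mice. Blk was above background on at most 2 arrays and was not tested. All 4 plasma cell markers were higher (mean level -2.75 to -2.34 against 0.61 to 1.55), with Tnfrsf17 above background in 0 of 3 MRL mice, and so were 6 of 7 macrophage markers (0.46 to 1.03 against 2.97 to 3.08). Their part in the rises of Batf, Gpr183, S1pr2 and Mef2b was not tested.

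The wider germinal center B cell program was raised in part. Of 18 genes, 17 were tested, 9 were higher, 0 were lower and 8 did not pass, against the 7.12% of all genes that were higher. The median change was 1.57, and 1.19 with Gcsam and Fcrla, above background in 0 of 3 MRL mice, at their lower bound, beside -0.12 over all genes. With probes above background on all 6 arrays alone, 6 of 14 genes were higher. The named rises are those of Pou2af1, a B cell coactivator of octamer factors, which went from -3.84 ± 0.61 to 1.43 ± 0.49 (SD, n = 3 each), a 38.8-fold rise with an adjusted p of 0.000164 in limma, and of Fcrla, an Fc receptor-like protein of B cells, which was at least 6.33-fold higher. Cd83 rose by 6.52-fold and Spib by a change of 3.40, so the bound of Fcrla does not place it above them. The proliferation marker Mki67 had a change of 0.91 (standard error 0.39) and did not pass (adjusted p = 0.169 in limma), and Mybl1, Bach2, Foxo1, Ezh2, Lmo2, Ccnd3 and Ung, which did not pass either, had changes between -0.41 and 0.22. B cell markers moved with this list as given above.

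Among 20 follicular helper T cell genes, 19 were tested, 12 were higher, 1 was lower and 6 did not pass, beside 7.12% higher and 5.47% lower over all genes, with a median change of 1.31. Slamf6, a receptor of the SLAM family, was at least 16.7-fold higher on its brightest probe, and Cxcr5, the receptor for the follicle chemokine CXCL13, at least 11.1-fold higher in LPR mice, both probes with 0 of 3 MRL mice above background. Of the 3 tested Slamf6 probes, 2 were higher. Icos rose by 14.5-fold and Pdcd1 by 14.4-fold, both above background on all 6 arrays, so the bound of Cxcr5 does not place it above them. Il21, the cytokine that follicular helper T cells give to B cells, was the gene that fell, by 0.90 on the log2 scale on its brightest probe, while its other probe was higher. Cd40lg was above background in 0 of 6 mice. The count of 12 went to 7, of 14 genes, when probes had to be above background on all 6 arrays. This filter removed Cxcr5, Sh2d1a and Tigit, above background in 0 of 3 MRL mice, and also Tcf7 and Il4, above background in 2 of 3 and 1 of 3. Il4 was not among the 12, so these removals do not cover the whole drop. Slamf6 stayed in through a dimmer probe, above background on all 6 arrays, in place of the probe with the 16.7-fold bound. The fall of Il21 was lost in several alternatives. T cell markers moved with this list too.

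**Figure D3:**
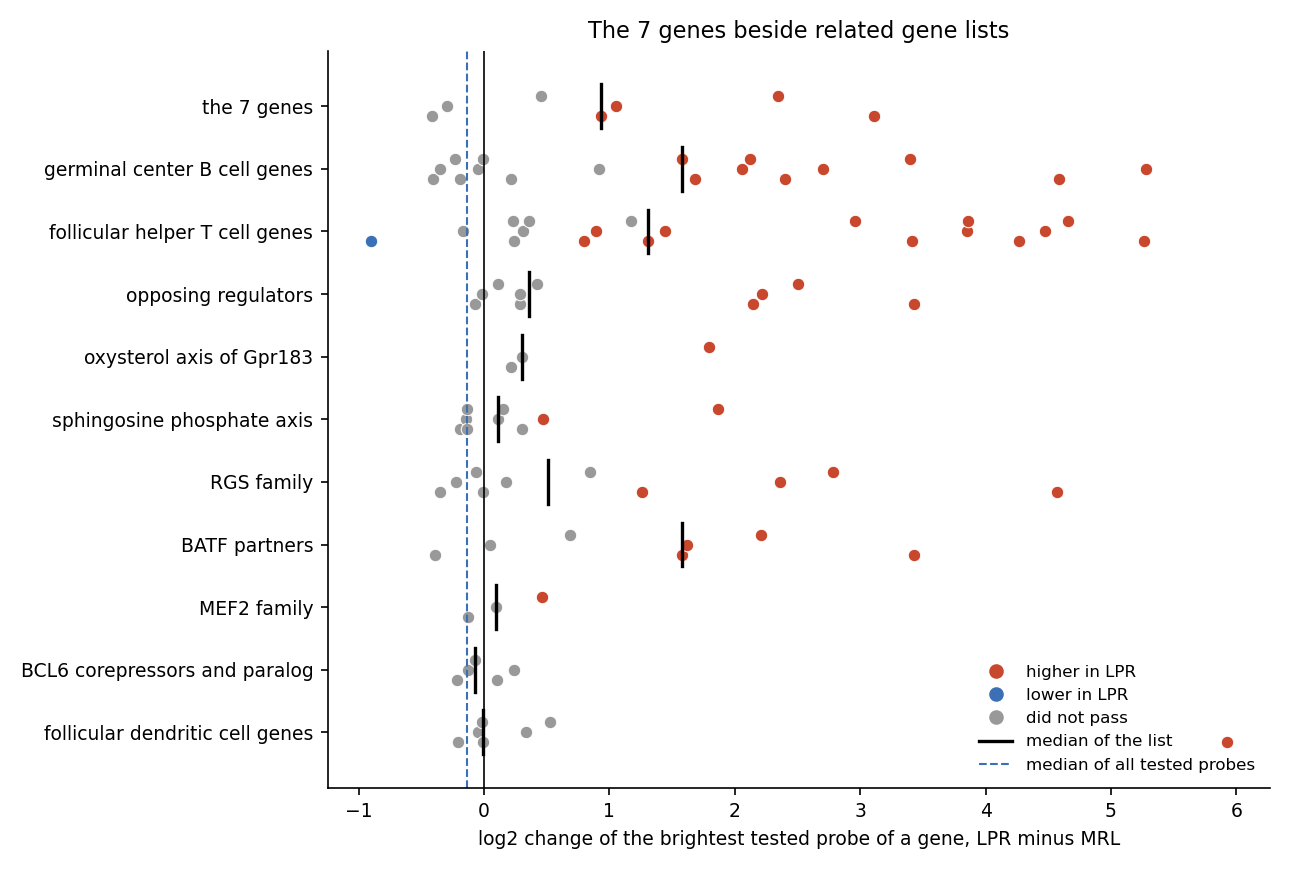
Log2 change, LPR minus MRL, of the brightest tested probe of each gene (points) for the 7 genes and 10 related lists, colored by the limma call, with the list median (black bar) and the median of all tested probes (dashed line, -0.14). The 7 genes have a median of 0.93, between the follicular helper list at 1.31 and the RGS family at 0.51, and 9 of 17 germinal center B cell genes are red.

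Of 10 genes listed as regulators of the fates that oppose the follicular one, 4 were higher and 0 were lower, beside 7.12% higher over all genes. Prdm1, the repressor that antagonises BCL6 and drives plasma cells, went from -2.64 ± 0.17 to -0.49 ± 0.23 (SD, n = 3 each), a 4.43-fold rise with an adjusted p of 0.000231 in limma. Irf4, which is also a partner of BATF, rose by 10.8-fold, Runx3 by 5.67-fold and Tbx21, the Th1 factor, by 4.65-fold. Within the same kidneys, Prdm1 thus passed the threshold and Bcl6 did not, and the difference between them was not tested. Of the paralog of BCL6 and its corepressors, Bcl6b, Bcor, Ncor1 and Hdac3 did not pass with their brightest probes (changes between -0.22 and 0.24).

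In the oxysterol axis, which makes and breaks the ligand of GPR183, 1 of 3 enzyme genes was higher, beside 7.12% of all genes. The LPR levels of all 3 lay above the MRL levels without overlap, a pattern that 11.7% of all genes had. Ch25h, which starts the synthesis, was -1.79, -1.76 and -1.85 in MRL 1 to 3 and 0.12, 0.05 and -0.17 in LPR 1 to 3. No LPR mouse came near the MRL mice, and the change was 1.80 (standard error 0.11), a 3.47-fold rise with an adjusted p of 0.000128 in limma. Cyp7b1, which acts next, had a change of 0.30 (standard error 0.13, adjusted p = 0.187), and Hsd3b7, which removes the ligand, a change of 0.21 (standard error 0.10, adjusted p = 0.222), and differences between the enzymes were not tested. Receptor and first enzyme were thus both higher in LPR mice.

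In the sphingosine phosphate axis, 2 of 9 tested genes were higher and 0 were lower, beside 7.12% higher and 5.47% lower over all genes. S1pr5 rose by 3.65-fold (change 1.87, standard error 0.28, adjusted p = 0.00642), and Arhgef1, the exchange factor through which S1PR2 signals, by 1.39-fold (change 0.47, standard error 0.10, adjusted p = 0.0312). S1pr1, the receptor that leads lymphocytes out of tissue and is also found on endothelium, had a change of -0.14 (standard error 0.11, adjusted p = 0.446). Gna13, the G protein of S1PR2, had a change of 0.11 and did not pass, and S1pr4 was above background on at most 2 arrays.

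Among the relatives of Rgs13 in the RGS family, 4 of 10 genes were higher, 0 were lower and 6 did not pass, as Rgs13 did not. Over all genes, 7.12% were higher. Rgs1 was -5.76, -5.43 and -5.87 in MRL mice, with 1 of 3 above background, and -1.02, -1.26 and -1.08 in LPR mice, a change of 4.57 (standard error 0.15, adjusted p = 1.18e-05 in limma). Rgs16 rose by 6.87-fold, Rgs10 by 5.13-fold and Rgs19 by 2.40-fold. The differences between these genes and Rgs13 were not tested.

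Of 7 genes for partners of BATF and its own relatives, 4 were higher, namely Irf4, Batf2, Batf3 and Irf8, beside 7.12% of all genes. Batf2 rose by 4.62-fold (change 2.21, standard error 0.12) and Batf3 by 3.07-fold (change 1.62, standard error 0.25). Jun (-0.39), Junb (0.69) and Jund (0.05) did not pass with their brightest probes. When any tested probe counted, 5 of the 7 genes were higher, beside 7.98% of all genes. Irf4 is also in the opposing list and Irf8 in the germinal center list, so these counts share genes. In the MEF2 family Mef2c rose by 1.38-fold (change 0.46, standard error 0.11, adjusted p = 0.0354), and Mef2a (-0.13) and Mef2d (0.10) did not pass.

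Follicular dendritic cells, the stromal cells that hold antigen in a follicle, were represented by 7 genes. Of these 1 was higher, beside 7.12% of all genes, namely Cxcl13, the chemokine that attracts CXCR5-bearing cells. Its levels were -6.07, -4.96 and -4.13 in MRL mice, 2 of 3 above background, and 0.93, 0.80 and 0.89 in LPR mice. Its change was 5.93 (standard error 0.44, adjusted p = 0.000254 in limma). Cr2, the complement receptor that marks these cells and B cells, had a change of -0.04 and did not pass (adjusted p = 0.862 in limma). Neither did Fcer2a, Madcam1, Mfge8, Ltbr and Tnfrsf1a, each gene taken by its brightest probe. When any tested probe counted, 2 of the 7 genes were higher, beside 7.98% of all genes.

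**Figure D4:**
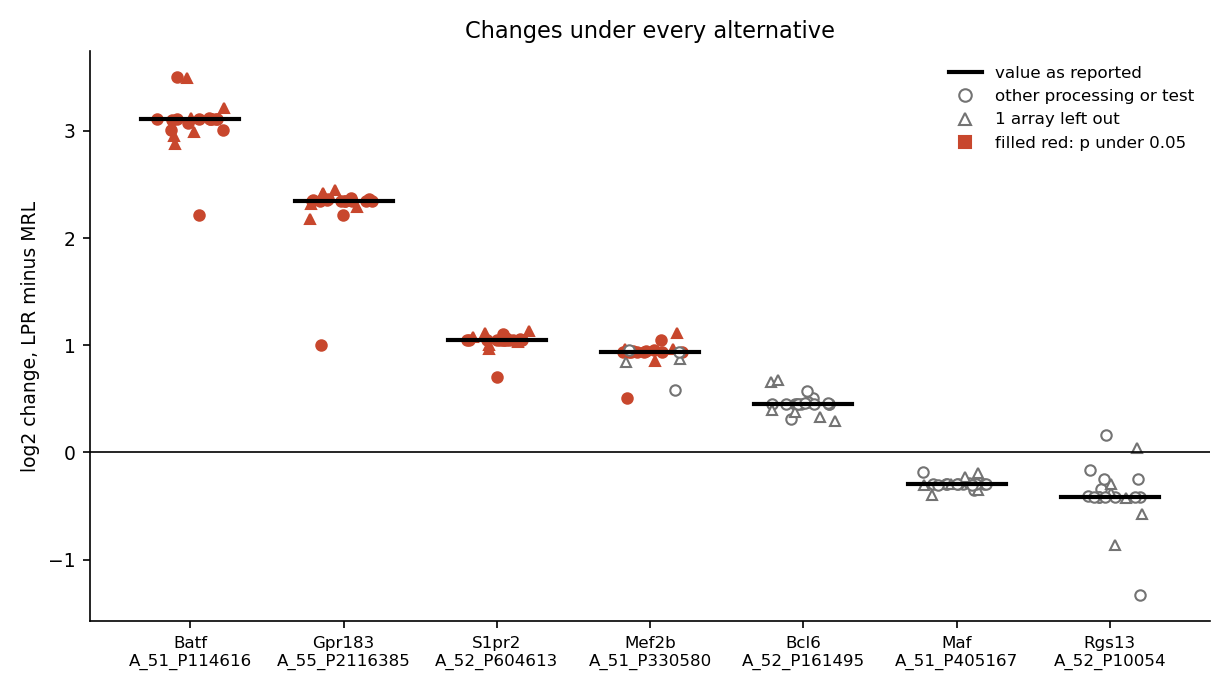
Log2 change, LPR minus MRL, of the brightest tested probe of each of the 7 genes under every other processing or test (circles) and with 1 array left out (triangles), filled red where p was under 0.05, beside the value reported (black bar). Batf, Gpr183 and S1pr2 stay red under all 21 alternatives, Mef2b under 16 of them, and Rgs13 crosses 0.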

How the data were processed

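TA was made from whole kidneys of 3 MRL and 3 LPR female mice with 1 Cy3 array per mouse. The intensities deposited by the authors came from Agilent Feature Extraction 12.0.3.1, background-subtracted and without normalization between arrays. Probe positions are on mm9. The authors also deposited a ratio, each intensity divided by the 75th percentile of its array, which served as an alternative. RNA was isolated with Trizol according to the paper and with the RNeasy Mini Kit according to the labels.

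Each array held 59305 non-control spots, of which 73 to 90 outliers were left out, and its 75th percentile was 706 to 942. The intensities were taken to log2, this percentile was subtracted and spots of 1 probe were averaged. The strains were compared by limma 3.58.1 under R 4.3.3, without a block, since nothing in the labels pairs mice of the strains. Deviations of same-numbered mice from their group means had r = 0.115, 0.0203 and 0.00516. "At least" folds are taken where no array of a group was above background, against the lowest signal above background on each array. On simulated arrays of 39916 probes, 3 for each strain, 140 of 200 changed probes were recovered, with 6 false calls. Of these, 48 of 100 had a log2 change of 1 and 92 of 100 a log2 change of 2.

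The 7 genes, the lists and the tests were chosen with earlier results of these data known. Named genes are the 7 genes, their closest relatives, Fas, up to 2 rises and 2 falls per list, and whole lists of at most 3 genes. Other list members and markers, such as those that make up a count of 5 or fewer, were named after their values were seen. Some genes of the lists and 1 close relative are not reported here by name, although the counts and medians of the lists include them. Promoter windows and names are RefSeq's. The alternatives were normexp with an offset of 50, quantile and median scaling, the authors' ratios, dim probes kept or probes required on all 6 arrays, outlier spots kept, an intensity trend, the replicate number, slide row or slide column as a block, probes of a gene averaged, any tested probe of a gene (added after seeing the data), the methods' test, and leaving out each mouse. Figures were drawn with matplotlib 3.10.9.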

Additional observations from a re-analysis of the deposited data

How the results depend on the processing

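Batf, Gpr183 and S1pr2 kept their direction and their call in all 21 alternatives, with changes of 2.22 to 3.51, 1.00 to 2.45 and 0.71 to 1.14. Of the 7 genes, 3 or 4 were higher and 0 were lower in all 23 alternatives. Mef2b lost its call in 5 of 21, with the slide row as a block (0.58), without MRL 3 (0.87), without LPR 3 (0.84), and under the methods' test after adjustment on log2 (0.93) and linear values (0.95). Among probes that did not pass, signs turned for Rgs13 with the slide column as a block (0.16, against -1.33 with the slide row) and without LPR 1 (0.043, the highest with 1 mouse left out, the lowest being -0.87 without LPR 3), for the second Bcl6 probe with the slide column (-0.52), without MRL 3 (-0.23) and without LPR 1 (-0.03, up to 0.77 without MRL 2), and for Maf probe A_55_P2633949 without MRL 1 (-0.0027) and without LPR 3 (-0.043, up to 0.17 without LPR 2). The slide row block rests on LPR 1 against the 3 MRL mice. The slide column block rests on LPR 2 against MRL 1 and LPR 3 against MRL 2. The causes were not tested.

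With the replicate number as a block, 4 of the 7 genes were higher, and 2199 probes were higher and 1117 lower over the array, against 2606 and 2462 without the block. MRL 1 correlated best with LPR 1, but MRL 2 and MRL 3 did not correlate best with their own number. The tally of lower probes also moved to 4498 under normexp, 1093 with no filter, 463 with the slide row (1458 higher), 973 with the slide column, 760 to 2269 with 1 mouse left out (760 without MRL 2, 827 without MRL 3, 839 without MRL 1, 900 without LPR 3, 1503 without LPR 1), 7175 and 7384 under the methods' test unadjusted on log2 and linear values, and 1385 and 1353 after adjustment (1736 and 1444 higher). In the follicular helper list, the higher genes went from 12 to 7 with the filter on all 6 arrays (9 to 6 in the germinal center list), and the 1 lower gene, Il21, went to 0 with no filter, with the replicate block, with the slide row, without LPR 1, without LPR 3, under the adjusted methods' tests and with the mean of probes, and to 2 under the unadjusted ones and when any tested probe counted. In the germinal center list, 1 gene was lower under quantile normalization. Rgs13 could not be tested with the filter on all 6 arrays.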
